A study of Mus musculus with 8 samples.

Results

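Transcripts of 10 surface proteins used to stage double-negative (DN) thymocytes were followed across 8 RNA-seq libraries of sorted DN3 thymocytes. The genes were chosen by name, as markers whose surface protein changes before or after β-selection, and all 10 (Il2ra, Cd44, Kit, Thy1, Cd24a, Cd27, Cd28, Cd5, Cd2 and Tfrc) are among the 16538 genes of the deposited table. All mice were 6 weeks old, on a C57BL/6 background, and carried floxed Sel1l alleles on both chromosomes. The 4 control libraries came from mice labelled Sel1l-f/f and the 4 Sel1l CKO libraries from mice labelled Sel1l-f/f hCD2cre+, in which an iCre transgene driven by human CD2 regulatory sequence acts from early thymic progenitors onward. Controls carried no Cre, so an effect of the transgene and one of Sel1l loss cannot be told apart. SEL1L is the adaptor of the HRD1 ubiquitin ligase in endoplasmic reticulum-associated degradation, and the libraries address how its loss changes DN3 thymocytes at the β-selection checkpoint.

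DN thymocytes are staged by the surface proteins CD44, c-Kit (CD117) and CD25. Early progenitors and DN2 cells carry CD44 and c-Kit, DN2 and DN3 cells carry CD25, and DN4 cells carry neither CD25 nor CD44. β-selection takes place within DN3: cells with a productive TCRβ chain signal through the pre-TCR, enlarge, begin to divide and gain CD27, CD28, CD5 and the transferrin receptor CD71 before they lose CD25. Bulk RNA from the whole DN3 gate therefore mixes cells before and after selection, and a smaller share of a cell type cannot be told apart from less RNA per cell.

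Values were deposited as RPKM, reads per kilobase of gene scaled to the depth of the library. The steps between low values correspond to gene lengths that include introns: the annotated span turned every value of 75.2% of the genes into a whole read number, to within 0.02 reads, and the exon length did so for 3.23%. The depth recovered in this way was 32900247 to 50401348 reads per library. Values of single libraries are given in the order of replicates 1 to 4. Sel1l itself measured 1.83, 1.66, 1.61 and 1.57 RPKM across the control libraries and 0.917, 0.876, 1.32 and 1.23 RPKM across the Sel1l CKO libraries. All 4 Sel1l CKO libraries lay below all 4 control libraries, and Sel1l fell (log2 fold change -0.59, limma adjusted p = 0.0417, test described below). Leaving out single libraries gave -0.69 to -0.51, and the call was lost in 6 of these 8 fits (without any 1 control library, or without Sel1l CKO replicate 1 or 2). Transcript that lacks only the deleted part would still be counted. Sel1l CKO replicates 1 and 2 held less Sel1l than replicates 3 and 4, and several markers divide along the same replicates, which the labels do not name as a batch.

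The libraries matched their DN3 label. Il2ra, which encodes CD25, was abundant and Cd44 was close to 0, as in the gate of lineage-negative CD4- CD8- CD44- CD25+ cells. Markers of B cells (5 of 5 genes in the table), NK cells (3) and thymic epithelium (4) each averaged below 0.1 RPKM over the 8 libraries, the highest being Cd79a (0.108 RPKM in control), Eomes and Krt8. Of the 5 myeloid markers, 4 averaged below 0.1 RPKM. Lyz2, the lysozyme gene of macrophages and granulocytes, measured 2.11, 2.44, 2.31 and 2.17 RPKM across the control libraries and 1.45, 0.655, 1.54 and 1.37 RPKM across the Sel1l CKO libraries (log2 fold change -0.86, limma adjusted p = 0.0773, past the threshold in 4 of 20 alternative fits). The summed myeloid level ran from 2.15 to 2.48 RPKM among controls and from 0.715 to 1.56 RPKM among Sel1l CKO libraries, and its part in the results below was not tested. The 2 erythroid markers in the table, led by Hba-a1, summed to 0 to 0.651 RPKM among controls and 0.25 to 1.59 RPKM among Sel1l CKO libraries. The 6 markers of double-positive and mature T cells, led by Cd8a, summed to 1.88 to 3.93 RPKM among controls and 2.29 to 4.59 RPKM among Sel1l CKO libraries. None of the 6 passed the test described below, against 3.94% of all genes tested.

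None of the stage markers passed the test between genotypes. Values were compared as log2(RPKM + 0.1) for the 10177 genes that averaged 0.1 RPKM or more, using limma's moderated test with Benjamini-Hochberg adjustment. Of the 10 markers, 9 were tested and Cd44 was below the minimum. The number with an adjusted p under 0.05 was 0 of 9, against 3.94% of all genes tested. At an unadjusted p under 0.05 there were 3 of 9, namely Cd2, Kit and Cd27, against 19.8% of all genes. In 0 of 10 markers did the genotypes separate without overlap, against 13.7% of the genes tested. With 9 or 10 genes, nothing particular to the markers was read from these counts. limma voom on the recovered reads, which includes Cd44, also called 0 of 10, against 4.2% of the 11653 genes in that fit, with 4 of 10 at an unadjusted p under 0.05, against 20.6%. That fit kept genes whose values did not turn into whole reads, Cd24a and Cd5 among them, so their reads are approximate. The median size of the log2 fold change in either direction was 0.16 over the 9 markers and 0.13 over all genes, with 4 markers higher and 5 lower in Sel1l CKO.

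**Figure D1:**
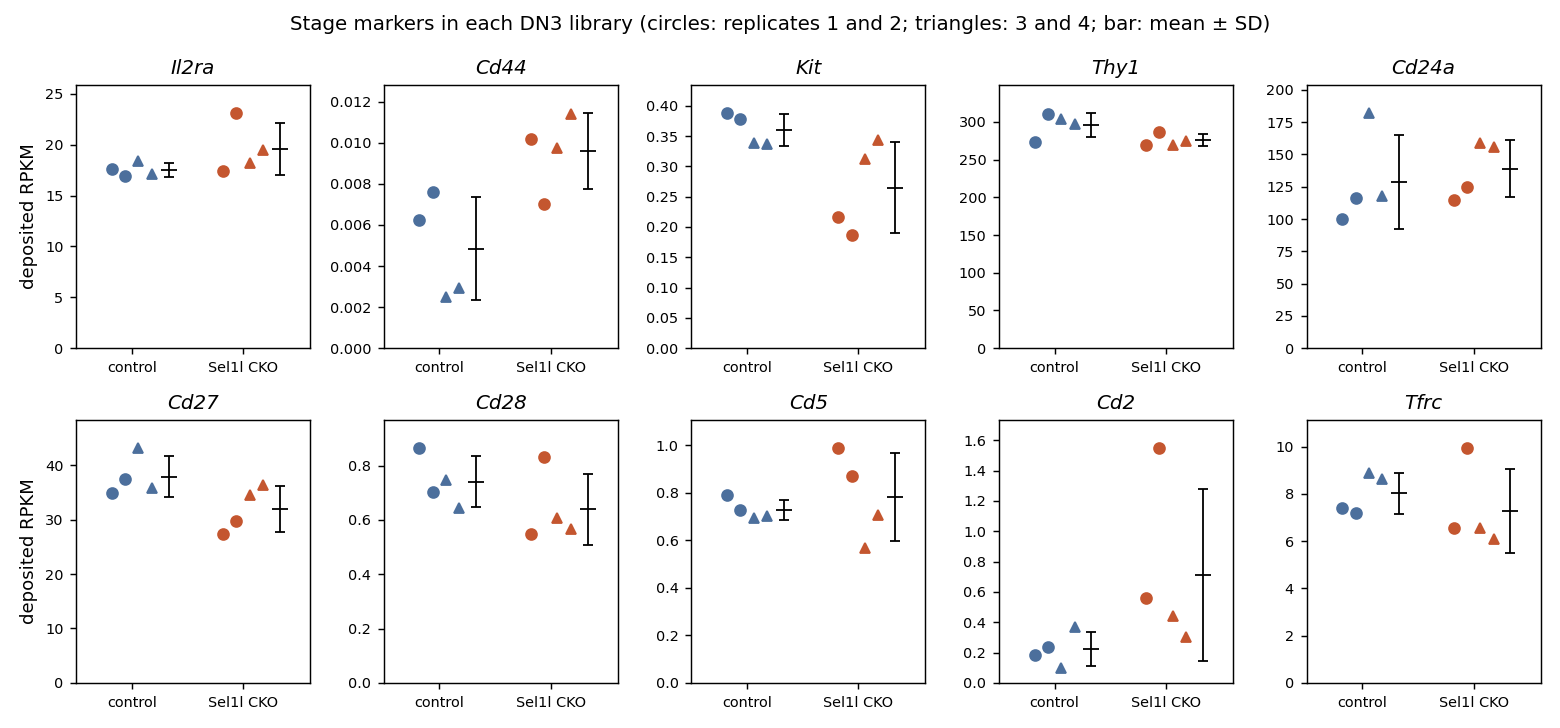
Deposited RPKM of each stage marker in the 8 DN3 libraries, with control in blue and Sel1l CKO in orange. Circles are replicates 1 and 2, triangles are replicates 3 and 4, and the black bars give the mean ± SD of 4 libraries. In all 10 panels at least 1 library of a genotype falls within the range of the other, and Sel1l CKO replicate 2 is the highest library for Il2ra, Cd2 and Tfrc.

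**Figure D2:**
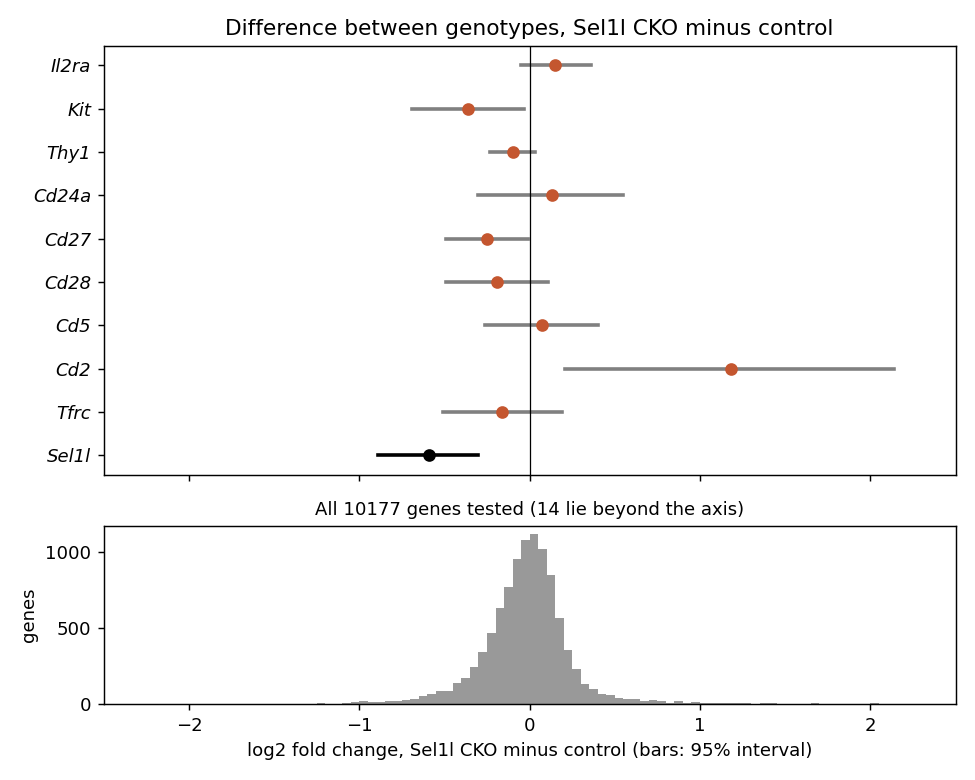
Log2 fold change of the 9 tested markers and of Sel1l (upper panel, points with 95% confidence intervals), above the distribution over all genes tested (lower panel, number of genes). The unadjusted intervals of Cd2, Kit and Cd27 leave out 0, and the other 6 markers have intervals that include it.

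Promoter windows of Kit and Cd27 are shown because these are the markers with an unadjusted interval that leaves out 0 and a sequence in the table used. RefSeq windows (GRCm38.p6, 250 bases before to 50 after the transcription start) were matched for 6 of the 10 markers. Capitals mark E-boxes (CANNTG), the element bound by E proteins, which are known regulators of thymocyte genes at β-selection. The windows are chr5:75574737-75575036 on the plus strand for Kit and chr6:125236978-125237277 on the minus strand for Cd27, each written 5′ to 3′ along its gene.
Kit: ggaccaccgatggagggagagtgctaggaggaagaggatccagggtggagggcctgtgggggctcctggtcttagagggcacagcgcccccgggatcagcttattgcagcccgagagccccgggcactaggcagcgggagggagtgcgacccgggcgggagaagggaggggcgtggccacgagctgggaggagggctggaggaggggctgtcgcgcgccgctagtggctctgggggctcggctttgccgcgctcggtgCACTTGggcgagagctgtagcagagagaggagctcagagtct
Cd27: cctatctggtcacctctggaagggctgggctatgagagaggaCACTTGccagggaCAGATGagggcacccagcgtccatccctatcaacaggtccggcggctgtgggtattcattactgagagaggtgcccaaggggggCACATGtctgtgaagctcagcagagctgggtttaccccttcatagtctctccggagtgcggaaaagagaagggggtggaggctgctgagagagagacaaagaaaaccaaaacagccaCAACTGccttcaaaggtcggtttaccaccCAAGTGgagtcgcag
The Kit window is 69.0% G and C with 20 CpG dinucleotides and holds 1 E-box. The Cd27 window is 56.0% G and C with 7 CpG dinucleotides and holds 5. An E-box occurs in 72.3% of all 32851 windows of this length. The core letters of the Notch partner RBPJ (TGGGAA, either strand) were found in neither window and occur in 25.6% of all windows. Matches were counted on both strands, and they describe the letters only.

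Il2ra, Cd44 and Kit define the gate and the stages before it. Il2ra (ENSMUSG00000026770.5, chromosome 2 of GRCm38, 11642807 to 11693193, plus strand) encodes the α chain of the IL-2 receptor. It measured 17.6, 16.9, 18.4 and 17.1 RPKM across the control libraries and 17.4, 23.1, 18.2 and 19.5 RPKM across the Sel1l CKO libraries. The groups overlapped, and replicate 2 was the high library of Sel1l CKO. Sel1l CKO differed from control by a log2 fold change of 0.15 (95% confidence interval -0.05 to 0.36, limma adjusted p = 0.383), and 0.07 without that library. An interval of 0.965 to 1.28 times control bounds the difference. Because cells were sorted on CD25 protein, these values describe transcript within the gate and do not measure how many cells reached it.

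Cd44 (ENSMUSG00000005087.17, chromosome 2, 102811141 to 102901665, minus strand) encodes the hyaluronan receptor that DN3 cells have lost. It had 23, 33, 8 and 10 reads in control replicates 1 to 4 and 35, 32, 29 and 34 reads in Sel1l CKO replicates 1 to 4, in libraries of 32900247 reads or more. In RPKM the means were 0.00483 ± 0.00251 in control and 0.00959 ± 0.00186 in Sel1l CKO (SD, n = 4 each). Control replicates 3 and 4 were the low libraries, and control replicate 2 lay above Sel1l CKO replicate 2 in RPKM (0.00763 against 0.00701). The exact permutation test over the 70 assignments of the libraries gave p = 0.0571, two-sided, where 0.0286 is the smallest p possible. On recovered reads, limma voom gave a log2 fold change of 1.02 (95% confidence interval 0.02 to 2.02, adjusted p = 0.235).

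Kit (ENSMUSG00000005672.12, chromosome 5, 75574916 to 75656722, plus strand) encodes the stem cell factor receptor, which is high on early progenitors and DN2 cells and is lost as cells become DN3. It measured 0.388, 0.378, 0.338 and 0.337 RPKM across the control libraries and 0.216, 0.187, 0.312 and 0.344 RPKM across the Sel1l CKO libraries. Replicates 1 and 2 of Sel1l CKO were the low libraries, while replicate 4 lay above control replicates 3 and 4. The means were 0.36 ± 0.0266 and 0.265 ± 0.0751 RPKM (SD, n = 4 each). Kit differed by a log2 fold change of -0.36 (95% confidence interval -0.69 to -0.03, limma adjusted p = 0.22), with a difference of -0.68 within replicates 1 and 2 and -0.03 within replicates 3 and 4. The pseudocount shrinks the change of a gene at this level: it was -0.11 with a pseudocount of 1, -0.47 with one of 0.01 and -0.53 with limma voom on 669 to 1476 reads per library.

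Other early genes had low deposited values, which are per gene span with introns. Of 12 genes of early progenitors and DN2 cells (Flt3, Lmo2, Lyl1, Spi1, Bcl11a, Mef2c, Cd34, Hhex, Tal1, Gata2, Hoxa9 and Il1rl1), 0 reached a mean of 0.1 RPKM and 0 were tested. Of 11 genes listed as expressed in DN3 cells before β-selection, not all particular to that stage, 10 were tested. Of these 0 passed, against 3.94% of all genes tested. All 10 had a lower level in Sel1l CKO, with a median log2 fold change of -0.35 against -0.01 over all genes. These genes were read in the same 8 libraries and chosen with earlier results of these data known. Their shared direction is therefore no independent evidence of a change. The lowest p values of that list were those of Cd3e, a signalling chain of the pre-TCR, and Nrarp, a Notch target. Cd3e averaged 39.3 ± 2.54 RPKM among controls against 31.7 ± 2.69 RPKM among Sel1l CKO libraries (n = 4 each, SD, log2 fold change -0.31, limma adjusted p = 0.0653). Nrarp was at 4.32 ± 0.709 and 2.97 ± 0.417 RPKM (SD, n = 4 each, log2 fold change -0.52, limma adjusted p = 0.0735).

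Thy1 and Cd24a encode small proteins that are held in the membrane by a glycosylphosphatidylinositol (GPI) anchor, which is attached in the endoplasmic reticulum. Thy1 (ENSMUSG00000032011.5, chromosome 9, 44043384 to 44048579, plus strand), the pan-T-lineage marker, measured 274, 310, 304 and 297 RPKM across the control libraries and 270, 287, 270 and 275 RPKM across the Sel1l CKO libraries. It varied little, with a coefficient of variation of 5.28% in control and 2.82% in Sel1l CKO, and control replicate 1 lay inside the Sel1l CKO range. The log2 fold change was -0.10, and its interval (-0.23 to 0.03, limma adjusted p = 0.353) was the narrowest of the 9 markers, at 0.85 to 1.02 times control.

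Cd24a (ENSMUSG00000047139.9, chromosome 10, 43578284 to 43584265, plus strand) encodes heat-stable antigen, high on immature thymocytes. It measured 100, 116, 182 and 118 RPKM across the control libraries and 115, 125, 159 and 156 RPKM across the Sel1l CKO libraries. The highest values were those of control replicate 3 and Sel1l CKO replicates 3 and 4. The log2 fold change was 0.13 (95% confidence interval -0.30 to 0.55, limma adjusted p = 0.739), and it ran from 0.02 without control replicate 1 to 0.30 without control replicate 3. The SD of its log2 values in control was 0.373, higher than in 95.6% of the 500 genes nearest to it in mean level, where the median was 0.0943. For Il2ra the same share was 18.6%.

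Of the markers that appear with β-selection, Cd27, Cd28 and Tfrc had lower and Cd5 and Cd2 higher means in Sel1l CKO, none past the test. Cd27 (ENSMUSG00000030336.14, chromosome 6, 125232622 to 125237010, minus strand) encodes a TNF receptor family costimulator, whose protein divides DN3a from DN3b cells. It measured 34.9, 37.5, 43.2 and 35.8 RPKM across the control libraries and 27.3, 29.7, 34.6 and 36.4 RPKM across the Sel1l CKO libraries. Sel1l CKO replicates 1, 2 and 3 lay below every control library, and replicate 4 lay among them. For Cd27 the log2 fold change was -0.25 (95% confidence interval -0.49 to -0.01, limma adjusted p = 0.244), or -0.34 within replicates 1 and 2 and -0.15 within replicates 3 and 4. Vamp1 overlaps Cd27 on the opposite strand, and whether the counting used strand is not given in the sources used here.

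Cd28 (ENSMUSG00000026012.2, chromosome 1, 60716800 to 60773359, plus strand) encodes the costimulatory receptor for CD80 and CD86. It measured 0.865, 0.702, 0.748 and 0.643 RPKM across the control libraries and 0.549, 0.83, 0.608 and 0.568 RPKM across the Sel1l CKO libraries. Sel1l CKO replicate 2 lay within the control range and the other 3 lay below it. Cd28 had a log2 fold change of -0.19 (95% confidence interval -0.49 to 0.11, limma adjusted p = 0.442), with -0.31 without Sel1l CKO replicate 2 and -0.12 without control replicate 1.

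Cd5 (ENSMUSG00000024669.8, chromosome 19, 10717116 to 10739002, minus strand) encodes a scavenger-receptor family inhibitor of antigen receptor signalling, whose surface level is known to follow the strength of that signal. It measured 0.789, 0.728, 0.692 and 0.704 RPKM across the control libraries and 0.989, 0.871, 0.566 and 0.708 RPKM across the Sel1l CKO libraries. Sel1l CKO libraries held both the highest values (replicates 1 and 2) and the lowest (replicate 3). Cd5 had a log2 fold change of 0.07 (95% confidence interval -0.26 to 0.40, limma adjusted p = 0.817), with 0.26 within replicates 1 and 2 and -0.12 within replicates 3 and 4. The coefficient of variation was 5.94% in control and 23.6% in Sel1l CKO.

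Cd2 (ENSMUSG00000027863.8, chromosome 3, 101275899 to 101287939, minus strand) encodes an adhesion receptor for CD48. It measured 0.184, 0.236, 0.101 and 0.368 RPKM across the control libraries and 0.557, 1.55, 0.439 and 0.3 RPKM across the Sel1l CKO libraries, from 90, 136, 43 and 167 reads and from 254, 942, 174 and 119 reads. Sel1l CKO replicates 1, 2 and 3 lay above every control library, and replicate 4 lay below control replicate 4. The log2 fold change of 1.18 was the largest among the 9 markers and the widest in its interval (0.21 to 2.14, limma adjusted p = 0.174). The exact permutation test gave p = 0.0571, two-sided. Without Sel1l CKO replicate 2, the highest library, the difference was 0.76. With pseudocounts of 1 and 0.01 it was 0.44 and 1.49. The SD of its log2 values exceeded that of 96.2% of the 500 genes nearest in level in control and 98.2% in Sel1l CKO. The Cre transgene carries human CD2 sequence, and whether reads from it were counted for mouse Cd2 was not tested.

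Tfrc (ENSMUSG00000022797.16, chromosome 16, 32608920 to 32632794, plus strand) encodes the transferrin receptor CD71, which brings iron into growing cells. It measured 7.41, 7.18, 8.88 and 8.63 RPKM across the control libraries and 6.54, 9.95, 6.54 and 6.09 RPKM across the Sel1l CKO libraries. Sel1l CKO replicate 2 was the highest of all 8 libraries and the other 3 of its genotype were the lowest. The log2 fold change was -0.16 (95% confidence interval -0.51 to 0.19, limma adjusted p = 0.586). Without Sel1l CKO replicate 2 it was -0.32, and within replicates 1 and 2, which include that library, it was 0.14.

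**Figure D3:**
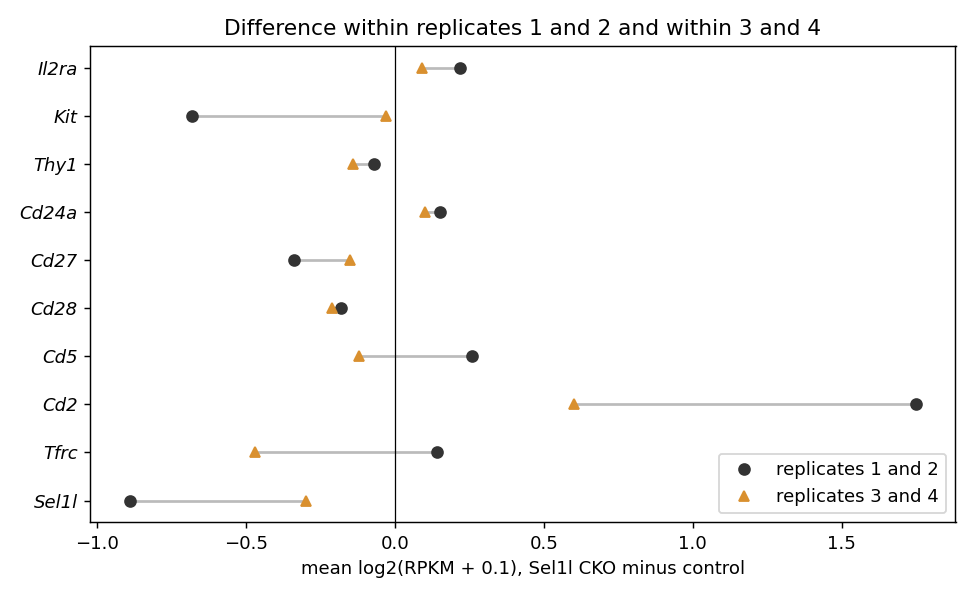
Difference between Sel1l CKO and control in mean log2(RPKM + 0.1) for each tested marker and for Sel1l, computed within replicates 1 and 2 (black circles) and within replicates 3 and 4 (orange triangles), 2 libraries of each genotype in each set. Sel1l (-0.89 against -0.30), Kit (-0.68 against -0.03), Cd27 (-0.34 against -0.15) and Il2ra (0.22 against 0.09) were farther from 0 within replicates 1 and 2. So were Cd2 (1.75 against 0.60), Cd24a (0.15 against 0.10) and Cd5 (0.26 against -0.12). Thy1 (-0.07 against -0.14), Cd28 (-0.18 against -0.21) and Tfrc (0.14 against -0.47) were farther from 0 within replicates 3 and 4. Cd5 and Tfrc lay on opposite sides of 0. Sel1l CKO replicates 1 and 2 are the libraries with less Sel1l, which its own points restate.

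Differences were also read within replicates 1 and 2 and within replicates 3 and 4. Kit, Cd27, Cd2, Cd5 (0.26 and -0.12), Cd24a (0.15 and 0.10), Il2ra (0.22 and 0.09) and Sel1l were farther from 0 within replicates 1 and 2. Sel1l CKO replicates 1 and 2 are the libraries with less Sel1l. The larger Sel1l difference there restates this and is no separate result. For Il2ra, Sel1l CKO replicate 1 (17.4 RPKM) was the lowest library of its genotype and replicate 2 (23.1 RPKM) the highest. Cd2 was likewise highest in Sel1l CKO replicate 2, at 1.55 RPKM against 0.557 RPKM in replicate 1. Thy1 (-0.07 and -0.14), Cd28 (-0.18 and -0.21) and Tfrc (0.14 and -0.47) were farther from 0 within replicates 3 and 4. Each set holds 2 libraries of each genotype, and the difference between the sets was not tested.

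The order of the markers in abundance was read per exon length, because introns make up unequal parts of the deposited gene lengths, from 1.73 times the exon length in Thy1 to 13.4 times in Cd44. On that scale the control means were 514 RPKM for Thy1, 300 RPKM for Cd24a, 154 RPKM for Il2ra, 71.4 RPKM for Cd27, 31.0 RPKM for Tfrc, 6.83 RPKM for Cd28, 3.31 RPKM for Kit, 3.23 RPKM for Cd5, 1.54 RPKM for Cd2 and 0.0645 RPKM for Cd44. Thy1 exceeded 99.5%, Il2ra 98.5% and Cd44 27.3% of 16316 genes. Kit and Cd5 overlapped between libraries, and the other neighbours in control did not. In Sel1l CKO the order from Thy1 to Cd28 was the same, followed by Cd2 (4.93 RPKM), Cd5 (3.48 RPKM), Kit (2.43 RPKM) and Cd44 (0.128 RPKM), with overlap among Cd28, Cd2, Cd5 and Kit in neighbouring pairs. For Cd24a and Cd5 the annotated span did not give whole reads, so their values on this scale are approximate.

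**Figure D4:**
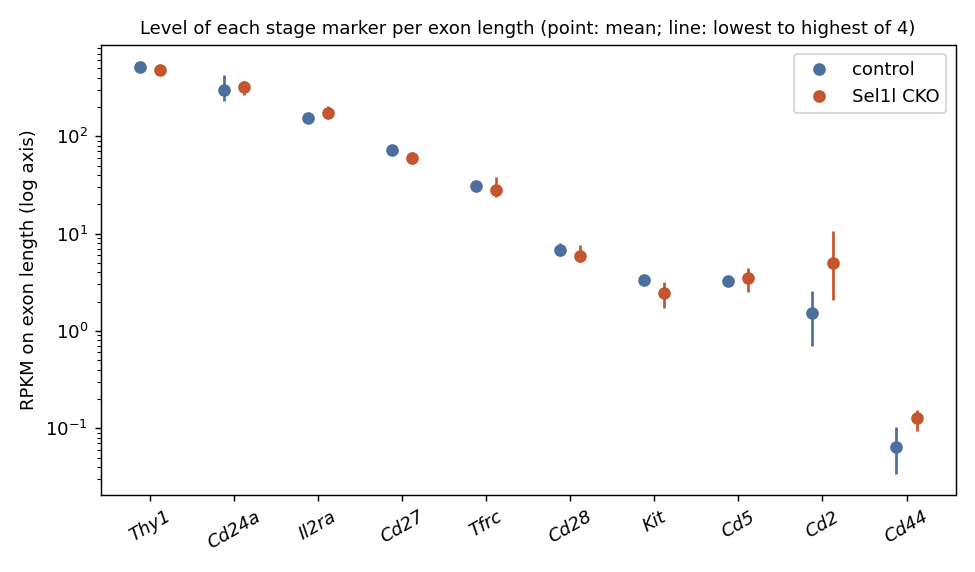
Level of each stage marker in RPKM rescaled to exon length, on a log axis, with control in blue and Sel1l CKO in orange. Points are means and lines run from the lowest to the highest of 4 libraries. In control the levels run from 514 RPKM for Thy1 to 0.0645 RPKM for Cd44, and Cd2 is the marker with the widest spread in Sel1l CKO.

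Other genes that rise after β-selection were read from a list of 13, all tested. Of these, 2 passed, both upward, against 3.94% of all genes tested. A higher level in Sel1l CKO was found for 6, and the log2 fold changes ran from -1.54 to 1.08 with a median of -0.05. This and the other lists are small and were chosen with earlier results of these data known. Nothing particular to a list was therefore read from its counts. The 2 that passed were Slc7a5 and Slc3a2, which encode the light and heavy chains of the CD98 amino acid transporter, and both are also known as ATF4 targets. Slc7a5 averaged 6.28 ± 0.235 RPKM among controls against 13.8 ± 4.41 RPKM among Sel1l CKO libraries (n = 4 each, SD, log2 fold change 1.08, limma adjusted p = 0.0134) and kept the call when any 1 library was left out. Slc3a2 was at 8.24 ± 1.08 and 15.8 ± 3.95 RPKM (SD, n = 4 each, log2 fold change 0.90, limma adjusted p = 0.028) and lost the call in 7 of these 8 fits, all but that without Sel1l CKO replicate 1, with values of 0.77 to 1.08. Some genes induced by pre-TCR signalling, picked from this list after their values were seen, had negative log2 fold changes that did not pass. Their shared direction is therefore no evidence of a change, and the marker Cd5 was at 0.07. The genes picked were Egr1 (-1.54, limma adjusted p = 0.317), Egr2 (-0.83, limma adjusted p = 0.327), Egr3 (-0.44, limma adjusted p = 0.383), Id3 (-0.66, limma adjusted p = 0.228) and Nr4a1 (-0.47, limma adjusted p = 0.692). Control libraries spread widely for Egr1, from 4.94 to 48.4 RPKM, and the genotypes overlapped for all of these genes. Egr1 was at -0.97 without control replicate 3, and Nr4a1 at -0.12 without control replicate 3 and -0.14 without control replicate 4. Of 8 cell cycle genes, 0 passed, against 3.94% of all genes tested, and 6 had a higher level in Sel1l CKO, with a median of 0.26. The lowest p values there were those of the mitotic kinases Plk1 (log2 fold change 0.41, limma adjusted p = 0.357) and Cdk1 (0.32, limma adjusted p = 0.41). Without control replicate 3 these were 0.22 and 0.18, Cdk1 was at 0.21 without Sel1l CKO replicate 1, and array weights gave 0.10 and 0.04.

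Among partners, ligands and relatives of the markers, 7 of 19 genes were tested and 0 passed, against 3.94% of all genes tested. Ligands differed in level. Cd70 (ligand of CD27) and Cd86 (of CD28) were listed at 0 in all libraries, and Kitl, the ligand of c-Kit, was listed at 0 in control. Cd48, the ligand of CD2, averaged 2.45 ± 0.255 RPKM among controls against 2.19 ± 0.144 RPKM among Sel1l CKO libraries (n = 4 each, SD, log2 fold change -0.16, limma adjusted p = 0.363), and it is named for that role. The lowest p values were those of Cd72, a B cell receptor proposed as a ligand of CD5, and Il2rg, the shared cytokine receptor γ chain. Cd72 ranged from 0.181 to 0.367 RPKM among controls and from 0.102 to 0.127 RPKM among Sel1l CKO libraries (log2 fold change -0.66, limma adjusted p = 0.0569). Il2rg ranged from 23.3 to 30.2 RPKM among controls and from 15.9 to 21.8 RPKM among Sel1l CKO libraries (log2 fold change -0.47, limma adjusted p = 0.0716), and it passed in 4 of 20 alternative fits. The 5 B cell markers summed to 0.04 to 0.226 RPKM among controls and 0.000933 to 0.0877 RPKM among Sel1l CKO libraries, and their part in the Cd72 values was not tested.

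Iron genes were read beside Tfrc. Of 12, 9 were tested. Against 3.94% of all genes tested, 1 of these passed, upward. This was Ftl1, the ferritin light chain that stores iron, which averaged 274 ± 22.8 RPKM among controls against 405 ± 53.2 RPKM among Sel1l CKO libraries (n = 4 each, SD, log2 fold change 0.56, limma adjusted p = 0.0212). Leaving out single libraries ended the call in 6 of 8 cases, all but those without control replicate 3 or Sel1l CKO replicate 2, with values of 0.50 to 0.65. Ftl1 has near-identical pseudogene copies that could share its reads.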

How the data were processed

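The authors sequenced stranded paired-end mRNA libraries, aligned reads to GRCm38 with STAR 2.5.2b, counted protein-coding genes with HTSeq 2.7 (per the labels and methods) and deposited RPKM values, 1 column per library. Counts, the length used and the strand setting are not given in the sources used here. Reads were recovered from the RPKM steps with GENCODE M21 gene spans. For limma voom, RPKM was multiplied by span and depth, also for genes that did not give whole reads. log2(RPKM + 0.1) was tested with limma 3.58.1 in R 4.3.3 (a model of genotype alone with a mean-variance trend, two-sided, on genes that averaged 0.1 RPKM or more, Benjamini-Hochberg adjustment). That minimum replaced one of 1 because lengths with introns lower the RPKM of long genes. Cd48, Egr1, Egr2, Egr3, Id3 and Nr4a1 were named outside the rule, after their values were seen. Exact permutation tests of single genes used Python 3.11.15 and scipy 1.17.1. The procedure was tested on simulated data with log2 changes of 1 and 2. It recovered 80 of 93 and 106 of 107 changed genes, with 4 false calls. Changes below 1 were not simulated, so the check does not address the sizes seen for most markers. The markers and lists were chosen with earlier results of these data known. The genes named are all 10 markers, Sel1l and, from each list, the genes past an adjusted p of 0.05 (at most 4) or, where none passed, the 2 with the lowest p, and for other cell types the highest marker where it bore on a result. The study describes its replicates as independent biological ones. The labels do not tie a library to an animal or say whether animals were pooled. Alternatives were other pseudocounts, minimums and scalings, no trend, array weights, a replicate block, a term for replicates 1 and 2 against 3 and 4, limma voom on reads, and leaving out each library.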

Additional observations from a re-analysis of the deposited data

Results flagged for a closer look

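Tfrc in Sel1l CKO replicate 2, at 9.95 RPKM, lay far from the other 3 libraries of its genotype, which ran from 6.09 to 6.54 RPKM. It was 1 of 22 groups of 4 libraries compared (the 10 markers and Sel1l in each genotype), where chance gives about 1.1.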

How the results depend on the processing

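None of the 20 alternative fits called a stage marker, and the lowest adjusted p of any marker in any limma fit was 0.107, for Cd2 without Sel1l CKO replicate 4. The number of genes called, 401, was 657 with array weights, 598 with a term for replicates 1 and 2 against 3 and 4, 489 with limma voom, 310 with no filter on low values, 344 with a mean RPKM of at least 1, and between 234 (without control replicate 1) and 345 (without Sel1l CKO replicate 1) with single libraries removed. The number of markers called was from 0 to 0 in those fits. Fewer libraries were fitted there, and the cause of the rise with array weights was not tested. Among the genes of the lists beside the markers, whose settings were added after seeing the data, 3 were called. The count was 1 with no filter, 5 with limma voom, 7 with quantile normalization, 8 with array weights and 9 with a term for replicates 1 and 2 against 3 and 4, and between 1 and 4 with single libraries removed. Slc7a5 kept its call in all 20 alternatives, and Slc3a2, Ftl1 and Sel1l lost theirs in 8, 7 and 9. Genes given as not passing were called in some: Piga in 8, Il2rg and Lyz2 in 4 each, Cd3e, Nrarp, Cd72 and Pigt in 2 each, and Egr1 and Id3 in 1 each. Nr4a1 turned to 0.08 with array weights. The direction of Cd5 turned with array weights (-0.12), without Sel1l CKO replicate 1 (-0.04, in a range of -0.04 to 0.20 over the 8 fits) and within replicates 3 and 4 (-0.12), and that of Tfrc within replicates 1 and 2 (0.14). Array weights also moved Cd2 to 0.71, Kit to -0.20, Cd27 to -0.12 and Cd24a to 0.33. The other 7 tested markers kept their direction in every setting run. On exon length, 4 markers changed place in the order of control levels, Il2ra with Cd27 and Kit with Cd5. Replicate numbers gave no clear pairing of the samples. The correlations of same-numbered libraries' deviations were 0.11, 0.08, 0.31 and 0.02. Of the 4 control libraries, 1 (replicate 3) correlated best with its own number, and narrowly (0.3123 against 0.3108). With 4 libraries per genotype these correlations cannot decide whether samples were paired. With the replicate block, 292 genes and 0 markers were called. Precision is limited by depth for Cd44, at 8 to 35 reads per library.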

Other observations

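Genes that make and remodel the GPI anchor, which holds Thy1 and Cd24a, were read from a list of 28, of which 25 were tested. None passed limma's adjusted p of 0.05, against 3.94% of all genes tested. A higher level in Sel1l CKO was found for 8, and the median log2 fold change was -0.10. The lowest p values were those of Piga, which acts in the first step of anchor synthesis, and Pigt, a subunit of the transamidase that attaches the anchor. Piga averaged 1.59 ± 0.244 RPKM among controls against 2.29 ± 0.235 RPKM among Sel1l CKO libraries (n = 4 each, SD, log2 fold change 0.50, limma adjusted p = 0.051), with every Sel1l CKO library above every control library. Pigt was at 12.3 ± 0.447 and 10.6 ± 0.584 RPKM (SD, n = 4 each, log2 fold change -0.21, limma adjusted p = 0.108), with every Sel1l CKO library below. Piga passed in 8 of 20 alternative fits (limma voom gave an adjusted p of 0.0408 and array weights 0.0194), and Pigt passed in 2 (quantile normalization 0.0432 and array weights 0.0412).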
